A study of Caenorhabditis elegans with 8 samples.

Results

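The cyp-35 genes of the laboratory roundworm Caenorhabditis elegans are a group of cytochrome P450 genes that comprises cyp-35A1 to cyp-35A5, cyp-35B1 to cyp-35B3, cyp-35C1 and cyp-35D1. The 10 members were chosen by symbol, and each was found on exactly 1 of the 21309 rows of the count table. The subfamily was selected on earlier results of these same libraries, in which several of its members differed between groups. The levels, folds and calls of the members against control and between the compounds are therefore a description and not independent evidence.

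The libraries hold RNA-seq read counts of total RNA from whole worms, and their strain and stage are not stated. Worms had been in 200 µM magnolol (3 libraries), 200 µM honokiol (2 libraries) or DMSO, the solvent, as control (3 libraries) for 1 h before RNA was taken. Magnolol and honokiol are biphenols from the bark of Magnolia trees and are positional isomers of each other, so the study sets a pair of closely related molecules at matched dose and time against a shared control. Nothing states that replicates were separate cultures, so any p-value here measures the spread between these libraries, which may be technical.

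Cytochromes P450 are haem enzymes that insert an oxygen atom into lipids, steroids and foreign compounds, which makes the product easier to conjugate and excrete. Those of the endoplasmic reticulum draw their electrons from NADPH-cytochrome P450 reductase and, for some reactions, from cytochrome b5. The cyp-35A genes are known as intestinal genes that foreign compounds induce, and cyp-35A2 is widely used as a reporter of such exposure; the cyp-35A genes have also been linked to fat storage. Of the other members, cyp-35B1 is known as a target of the insulin pathway acting through DAF-16, and cyp-35D1 is known to be induced by the anthelmintic thiabendazole through the nuclear receptor NHR-176.

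Total counts lay between 30274330 and 35888186 per library. No replicate pair was as close as counting noise, with chi-square per degree of freedom of 8.41 to 41.2. Magnolol 2 lay apart from the other magnolol libraries (41.2 and 32.3, against 8.41 between those), control 3 lay apart from the other controls (32.4 and 36.6, against 11.7), and the honokiol pair stood at 29.5. The whole-worm tissue was checked with marker lists. All 8 intestinal markers were detected, with a summed level of 4102 to 4571 CPM in control, 4257 to 5387 CPM with magnolol and 3577 to 4376 CPM with honokiol. Of these 8, only elt-7, an intestinal GATA factor, was called in any comparison (log2 0.71 ± 0.18 (SE) for honokiol against control, adjusted p = 0.0456). No marker of muscle, neuron, epidermis, germline, sperm or yolk was called. The summed level of the 3 yolk protein genes was nevertheless uneven, at 15930 to 18950 CPM in control, 19060 to 29370 CPM with magnolol and 10910 to 17500 CPM with honokiol. In bulk RNA, a change in the number of cells of a type and a change in RNA per cell cannot be told apart, and the part of tissue makeup in the results was not tested.

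All 10 members lie on chromosome V of the WBcel235 genome, and all are annotated as protein coding. The first group starts with cyp-35A5 at chrV:3936326-3938597, followed on the plus strand by cyp-35B1 at chrV:3939032-3941237, cyp-35B2 at chrV:3942160-3944523 and cyp-35B3 at chrV:3945353-3947044. The gaps between these 4 genes are 434, 922 and 829 bp. After 75564 bp come cyp-35A3 at chrV:4022609-4024482 and cyp-35A4 at chrV:4031619-4033446, also on the plus strand and 7136 bp apart. The genes cyp-35A1 at chrV:7359929-7361773 and cyp-35A2 at chrV:7362319-7364182 sit side by side on the minus strand, 545 bp apart. The last members stand alone: cyp-35C1 at chrV:13896663-13898487 on the minus strand and cyp-35D1 at chrV:16069238-16071318 on the plus strand.

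Gene structure runs with the letter of the name. The 5 cyp-35A genes and cyp-35C1 have 7 exons each, cyp-35D1 has 6 and the 3 cyp-35B genes have 5. Coding lengths are nearly equal, at 1482 bases for every cyp-35A gene, 1485 for cyp-35C1 and 1497 for the cyp-35B genes and cyp-35D1. The similar coding lengths mean that the order of levels per kilobase is close to the order of raw levels. No source used here states how reads that match several of these related genes were counted, so the split of reads between the members is uncertain. On the minus strand, non-coding genes overlap cyp-35B1 (K07C6.16) and cyp-35B3 (K07C6.17), and without a stated strand setting reads of the overlapping genes cannot be told apart.

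In control worms the subfamily was carried by cyp-35A2. Its level in CPM (counts scaled to a common library size) was 48.1, 44.4 and 47.1 in controls 1 to 3. The next member, cyp-35C1, stood at 19.6, 16.7 and 15.7 CPM, and no control library of it reached the lowest value of cyp-35A2. The rest were low, with cyp-35A3 at 4.91 ± 0.548 CPM (SD, n = 3), cyp-35B1 at 4.27 ± 0.394, cyp-35A5 at 2.44 ± 0.401, cyp-35B2 at 2.25 ± 0.730, cyp-35A4 at 1.19 ± 0.216 and cyp-35D1 at 1.07 ± 0.336. At the bottom were cyp-35B3 and cyp-35A1, each with 0 counts in controls 1 and 3. Per coding kilobase, cyp-35A2 was above cyp-35C1, and cyp-35C1 above all others, without overlap of the control libraries. Neighbours in that order whose control ranges overlapped were cyp-35A3 and cyp-35B1, cyp-35A5 and cyp-35B2, cyp-35A4 and cyp-35D1, and cyp-35B3 and cyp-35A1.

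**Figure D1:**
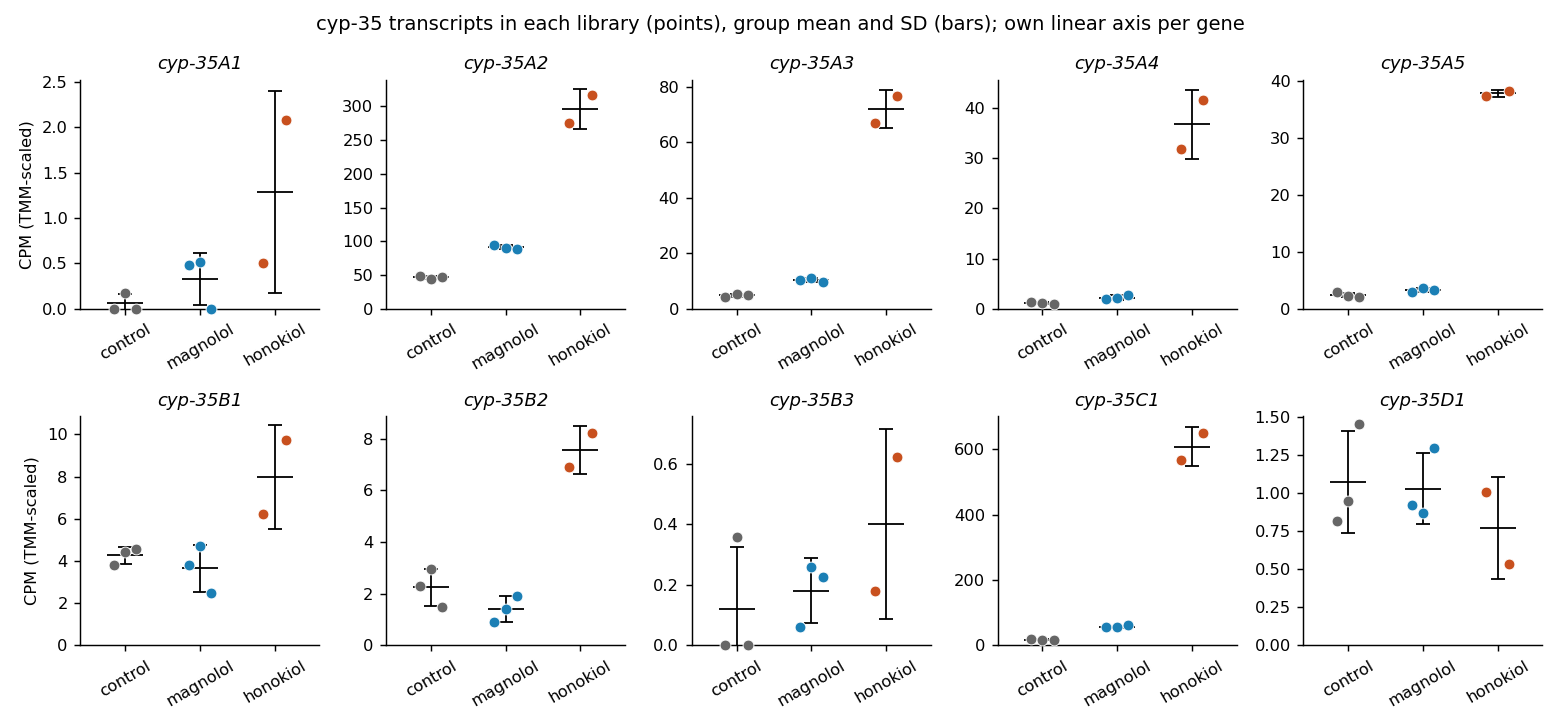
Level of each of the 10 cyp-35 genes in every library, in CPM scaled by TMM library size; each panel is 1 gene, points are libraries (3 control, 3 magnolol, 2 honokiol) and bars are group means with SD, on an axis of its own for each gene. For cyp-35C1 the honokiol libraries stand at 566 and 651 CPM, above 55.0 to 61.3 with magnolol and 15.7 to 19.6 in control, while cyp-35D1 shows groups that overlap.

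Magnolol against DMSO asks which members differed between worms given that isomer and the solvent controls. The transcripts of cyp-35C1, cyp-35A2, cyp-35A3 and cyp-35A4 were called higher with magnolol and no member was called lower, where a call is a p-value of edgeR's quasi-likelihood test that stays under 0.05 after Benjamini-Hochberg adjustment over all 16813 rows tested. That is 4 of 10 members, beside 2.16% of all tested rows called higher and 0.702% called lower. The members' median log2 fold change was 0.74, beside 0.003 over all rows tested. These members were picked on such results, so nothing is read from the difference.

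The largest fold change among the called members was that of cyp-35C1, at 55.0, 57.1 and 61.3 CPM in magnolol 1 to 3. All magnolol libraries lay above all controls, and the fold change was 3.33 (log2 1.74 ± 0.11, SE). The reporter gene cyp-35A2 stood at 95.01, 89.9 and 89.3 CPM, also clear of the controls (log2 0.97 ± 0.09). For cyp-35A3 the magnolol libraries held 10.2, 11.1 and 9.81 CPM against 4.29, 5.32 and 5.13 CPM in control (log2 1.08 ± 0.13). These 3 calls held in each of the 16 alternative analyses.

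The call of cyp-35A4 was less firm. Its magnolol libraries were at 1.88, 2.09 and 2.71 CPM and its controls at 1.43, 1.10 and 1.02 CPM, from 31 to 96 counts per library, so the groups were apart by a narrow margin. The log2 fold change was 0.91 ± 0.21 with an adjusted p of 0.0333. The call held in 8 of 16 alternatives, with adjusted p up to 0.261. It was lost without control 2 (adjusted p = 0.122), control 3 (0.109), magnolol 2 (0.0655) or magnolol 3 (0.177), at log2 values of 0.74 to 1.07 over all alternatives.

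The other 6 members were not called. The transcript of cyp-35A5, next to the cyp-35B genes, overlapped its controls (2.86, 3.64 and 3.25 CPM against 2.89, 2.32 and 2.12). Its log2 fold change was 0.41, with a 95% interval of 0.05 to 0.76 that is not adjusted for the number of rows, and an adjusted p of 0.25. The insulin-pathway target cyp-35B1 had a log2 fold change of -0.22 (interval -0.75 to 0.30) and its neighbour cyp-35B2 one of -0.66 (interval -1.32 to 0.00). The thiabendazole-inducible cyp-35D1 gave -0.05 (interval -1.01 to 0.90).

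Honokiol against DMSO put the same question to the other isomer. Here cyp-35C1, cyp-35A4, cyp-35A5, cyp-35A3, cyp-35A2 and cyp-35B2 were called higher and no member was called lower. That is 6 of 10 members, beside 3.04% of all tested rows called higher and 0.393% called lower. The members' median log2 fold change was 3.27, beside -0.012 over all rows tested. That median includes cyp-35A1, which entered the tests only through the treated groups. As with magnolol, nothing is read from the difference.

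The highest level and the largest called fold change both belonged to cyp-35C1. It reached 566 and 651 CPM in honokiol 1 and 2, a fold change of 35.1 over control (log2 5.13 ± 0.13). Next in fold change came cyp-35A4, which went from 1.43, 1.10 and 1.02 CPM in control to 31.9 and 41.5 CPM (31.0-fold, log2 4.94 ± 0.21). The 95% intervals of cyp-35C1 (4.86 to 5.40) and cyp-35A4 (4.50 to 5.39) overlapped, so their order in fold change is not settled. The genes cyp-35A5, at 37.4 and 38.2 CPM, and cyp-35A3, at 67.1 and 76.8 CPM, stood 15.5-fold and 14.6-fold above control (log2 3.95 ± 0.17 and 3.87 ± 0.14). Among the called cyp-35A genes the best expressed in control had the smallest fold change, since cyp-35A2 reached 275 and 317 CPM (log2 2.67 ± 0.10). For these 5 genes each honokiol library lay above every control and every magnolol library, and the calls held in all 16 alternatives. The share of all tested rows with such a separation was not computed, so nothing particular to the members is read from it.

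The cyp-35B genes moved less. The transcript of cyp-35B2 stood at 6.92 and 8.22 CPM with honokiol against 2.31, 2.94 and 1.49 CPM in control (log2 1.75 ± 0.31). Its call was lost without honokiol 2 (adjusted p = 0.0571) and held in the other 15 alternatives. The transcript of cyp-35B1 was at 6.23 and 9.73 CPM with honokiol and at 3.82, 4.43 and 4.56 CPM in control, apart but not called (log2 0.90 ± 0.26, adjusted p = 0.0934). It was called without honokiol 1 (adjusted p = 0.0467) and without a low-count filter (0.0342), and its adjusted p reached 0.722 over the alternatives. For cyp-35D1 the honokiol libraries, at 1.01 and 0.534 CPM, overlapped the controls, with a log2 difference of -0.47 (interval -1.57 to 0.62).

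**Figure D2:**
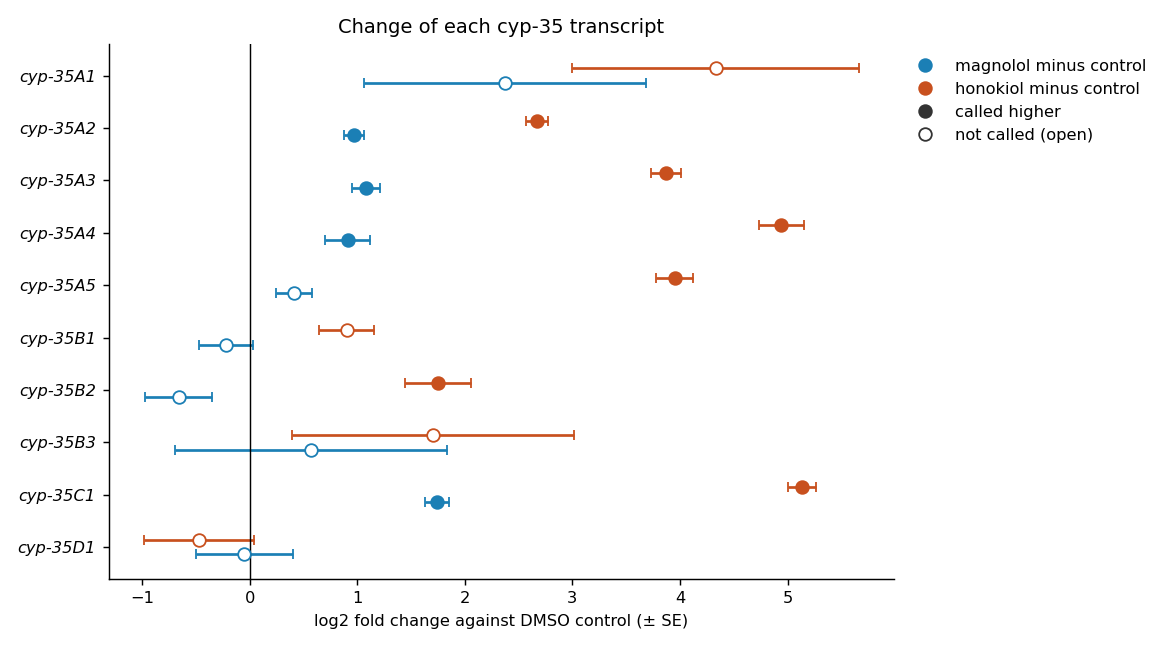
Log2 fold change of each cyp-35 gene for magnolol against control and for honokiol against control, with bars of 1 SE; filled points were called at an adjusted p under 0.05 over all rows tested and open points were not. With honokiol 6 members are filled, from 1.75 for cyp-35B2 to 5.13 for cyp-35C1, and with magnolol 4, from 0.91 for cyp-35A4 to 1.74 for cyp-35C1; both comparisons share the same 3 controls.

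The scarcest members are best seen in raw counts. For cyp-35A1 there were 0, 6 and 0 counts in control, 16, 16 and 0 with magnolol, and 17 and 70 with honokiol. A count of 0 has an exact Poisson 95% upper limit of 3.69 counts, which covers counting error only. The low-count filter asked for 0.299 CPM in at least 2 libraries, and cyp-35A1 met it in 0 controls, 2 magnolol and 2 honokiol libraries. It thus entered the tests through the treated groups, and its log2 value of 4.33 ± 1.33 for honokiol, not called (adjusted p = 0.122), depends on a control group close to 0. It was called without the filter (adjusted p = 0.0382) and, at the edge of the threshold, in the fit of honokiol and control alone (0.05 after rounding). Its log2 value was 8.42 without control 2, the control that held its 6 counts (adjusted p = 0.0747), and 2.98 without honokiol 2 (0.737, the highest of the alternatives). For cyp-35B3 the counts were 0, 12 and 0 in control, 2, 8 and 8 with magnolol, and 6 and 21 with honokiol, so no difference was detectable at this depth. It met the minimum in 1 control and 1 honokiol library. The other 8 members met it in all 8 libraries.

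The direct comparison of the isomers asks where moving the same substituents on the biphenyl went with a different level. Of the 10 members, cyp-35A2, cyp-35A3, cyp-35A4, cyp-35A5, cyp-35B2 and cyp-35C1 were higher with honokiol than with magnolol and passed the test. No member was called higher with magnolol. Over all tested rows 1.24% were called higher with honokiol and 0.285% higher with magnolol. The members' median log2 difference, magnolol minus honokiol, was -2.19, beside -0.014 over all rows tested. Nothing is read from that gap either, for the same reasons as in the comparison of honokiol with control.

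The sizes of the differences between the isomers varied widely among the members. Honokiol exceeded magnolol 16.5-fold for cyp-35A4 (log2 difference -4.04 ± 0.20, magnolol minus honokiol) and 11.6-fold for cyp-35A5 (-3.54 ± 0.16). The excess was 10.5-fold for cyp-35C1 (-3.40 ± 0.12), 6.93-fold for cyp-35A3 (-2.79 ± 0.13), 5.32-fold for cyp-35B2 (-2.41 ± 0.32) and 3.24-fold for cyp-35A2 (-1.70 ± 0.10). The 95% intervals of cyp-35A4 (-4.45 to -3.62) and cyp-35A2 (-1.91 to -1.48) are far apart, although both genes were called higher with each compound. The isomers were not shown to differ for 4 members. The interval was -1.69 to -0.56 for cyp-35B1, whose groups did not overlap and whose adjusted p was 0.0504. It was called in 7 of 16 alternatives, among them those without honokiol 1 (adjusted p = 0.0226) and without magnolol 2 (0.0328), and its adjusted p ran up to 0.708. The interval was -0.67 to 1.51 for cyp-35D1, -4.40 to 0.47 for cyp-35A1 and -3.85 to 1.58 for cyp-35B3, so sizeable differences in either direction remain possible for the last of these.

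The members were also compared within the honokiol pair. Honokiol 2 was above honokiol 1 for 9 of 10 members, the exception being cyp-35D1. The share of all tested rows that were higher in honokiol 2 was not computed, so nothing particular to the members is read from this count. The ratio of the second library to the first was 1.15 for each of cyp-35A2, cyp-35A3 and cyp-35C1, 1.02 for cyp-35A5 and 1.30 for cyp-35A4. It was 1.19 for cyp-35B2, 1.56 for cyp-35B1, 3.50 for cyp-35B3 and 4.12 for cyp-35A1, the last of these from 17 and 70 counts. With 2 libraries, the spread of the honokiol group is known poorly for every member.

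Summed over the 10 members, the subfamily stood at 83.3, 78.7 and 78.6 CPM in control, at 171, 172 and 172 CPM with magnolol and at 992 and 1145 CPM with honokiol. The groups did not overlap. Members differ little in length, so these sums weigh them nearly alike. Rows of cytochrome P450 genes were taken as those whose symbol starts with cyp-, so any P450 gene under another name is left out. As a share of the summed CPM of all cytochrome P450 rows, the subfamily made up 9.01% ± 0.448 (SD, n = 3) in control, 6.66% ± 0.386 (n = 3) with magnolol and 27.8% ± 0.948 (n = 2) with honokiol. With magnolol the subfamily's sum was thus higher than in control while its share of P450 transcripts was lower, since the summed level of all P450 rows was 891 ± 29.0 CPM in control and 2585 ± 154 CPM with magnolol. By letter, the 5 cyp-35A genes summed to 55.1, 108 and 444 CPM in control, magnolol and honokiol, and the 3 cyp-35B genes to 6.64, 5.27 and 15.9 CPM.

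The make-up of the subfamily differed between the groups as well. The share of its summed CPM that came from cyp-35A2 was 58.0% in control, 53.2% with magnolol and 27.7% with honokiol, and that from cyp-35C1 was 21.6%, 33.7% and 56.9%. The ratio of cyp-35C1 to cyp-35A2 was 0.373 ± 0.037 in control, 0.634 ± 0.054 with magnolol and 2.05 with honokiol, where the libraries gave 2.06 and 2.05. With honokiol 59.8% of the gain in summed CPM over control came from cyp-35C1 and 25.2% from cyp-35A2. With magnolol these genes gave 44.2% and 49.1% of a gain of 91.5 CPM. Among the 79 P450 rows of the table, cyp-35C1 ranked 18 by mean CPM per coding kilobase in control, 9 with magnolol and 2 with honokiol. For cyp-35A4 the ranks were 56, 61 and 21 in the same order, and for cyp-35A5 45, 56 and 20.

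**Figure D3:**
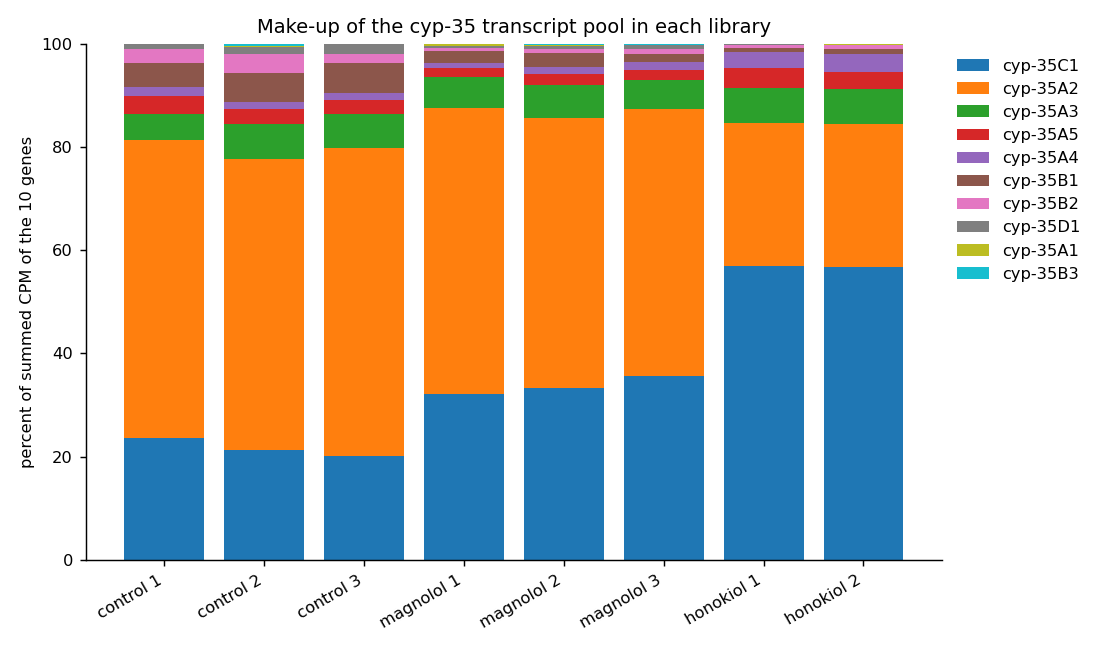
Percent of the summed CPM of the 10 cyp-35 genes that each gene contributed, as a stacked bar for every library of the 3 groups. The share of cyp-35A2 averages 58.0% in control and 27.7% with honokiol, while that of cyp-35C1 averages 21.6% in control and 56.9% with honokiol.

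Some members that lie side by side differed in their response to honokiol. The 4 genes from cyp-35A5 to cyp-35B3 are on 1 strand with gaps of under 1 kb, yet the honokiol log2 fold changes were 3.95 ± 0.17 for cyp-35A5, 0.90 ± 0.26 for cyp-35B1 and 1.75 ± 0.31 for cyp-35B2, while cyp-35B3 was too scarce to place. The interval of cyp-35A5 with honokiol (3.59 to 4.31) lay apart from those of cyp-35B1 (0.34 to 1.47) and cyp-35B2 (1.07 to 2.42), which overlapped each other. With magnolol the interval of cyp-35A5 (0.05 to 0.76) overlapped that of cyp-35B1 (-0.75 to 0.30). It lay narrowly above that of cyp-35B2 (-1.32 to 0.00). The pair cyp-35A1 and cyp-35A2, 545 bp apart, differed most in level, with means of 0.331 and 91.4 CPM with magnolol and 1.29 and 296 CPM with honokiol, though reads shared between near-identical genes could enter either count. Exon number gave a description of the same kind: of the 6 genes with 7 exons 5 were called higher with honokiol, and of the 3 genes with 5 exons 1 was. The scarcity of cyp-35A1 and cyp-35B3 enters both of those counts. The gene with 6 exons, cyp-35D1, was not called. Over all tested rows 3.04% were called higher with honokiol, and the share by exon number was not computed. No link between exon number and response is therefore read from these counts.

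Genes next to the members were looked at through the nearest pair of protein-coding genes on each side that are no members. Of the rows of these 21 genes 10 were tested, with exc-13 on more than a single row. Magnolol gave 3 calls higher than control and honokiol 3, beside 2.16% and 3.04% of all tested rows. There were 0 lower calls and 0 calls between the isomers. The median log2 fold change of the 10 rows was 0.31 with magnolol and 0.46 with honokiol, beside 0.003 and -0.012 over all rows tested. The gene K09D9.1, which lies 564 bp to the right of cyp-35A3 and before cyp-35A4, went from 4.24 ± 0.884 CPM in control to 10.9 ± 1.85 with magnolol and 13.5 ± 0.129 with honokiol (log2 1.36 ± 0.18 and 1.66 ± 0.19). Unlike both of the flanking members, it was not called between the isomers (log2 -0.31 ± 0.19, adjusted p = 0.462). To the left of cyp-35C1, lbp-8, which encodes a lysosomal lipid-binding protein, rose with both compounds (log2 2.95 ± 0.56 and 4.15 ± 0.58) from a level of 0.251 ± 0.219 CPM. Between them lies sptl-3, a serine palmitoyltransferase gene of sphingolipid synthesis that ends 247 bp from cyp-35C1. It was called higher with honokiol (log2 0.67 ± 0.10) and not with magnolol (log2 0.33 ± 0.09, adjusted p = 0.0726). On the other side of cyp-35C1, the scarce oac-3 (0.138 ± 0.123 CPM in control) was called with neither compound. Its log2 fold changes were 2.85 ± 0.80 with magnolol (adjusted p = 0.0786) and 3.08 ± 0.84 with honokiol (0.0667).

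The third neighbour called with magnolol was C49G7.13, to the right of cyp-35A4, at log2 1.86 ± 0.43 (adjusted p = 0.0282). That call was lost in limma-voom (adjusted p = 0.0542) and without control 1 (0.0709), control 2 (0.0916), magnolol 1 (0.130) or magnolol 3 (0.106), and the gene was not called with honokiol (log2 1.41 ± 0.47). The nuclear receptor gene nhr-176, which starts 6 bp beyond the end of cyp-35D1, was not called with either compound (log2 -0.13 ± 0.16 and -0.05 ± 0.17), and neither was cyp-35D1 itself.

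**Figure D4:**
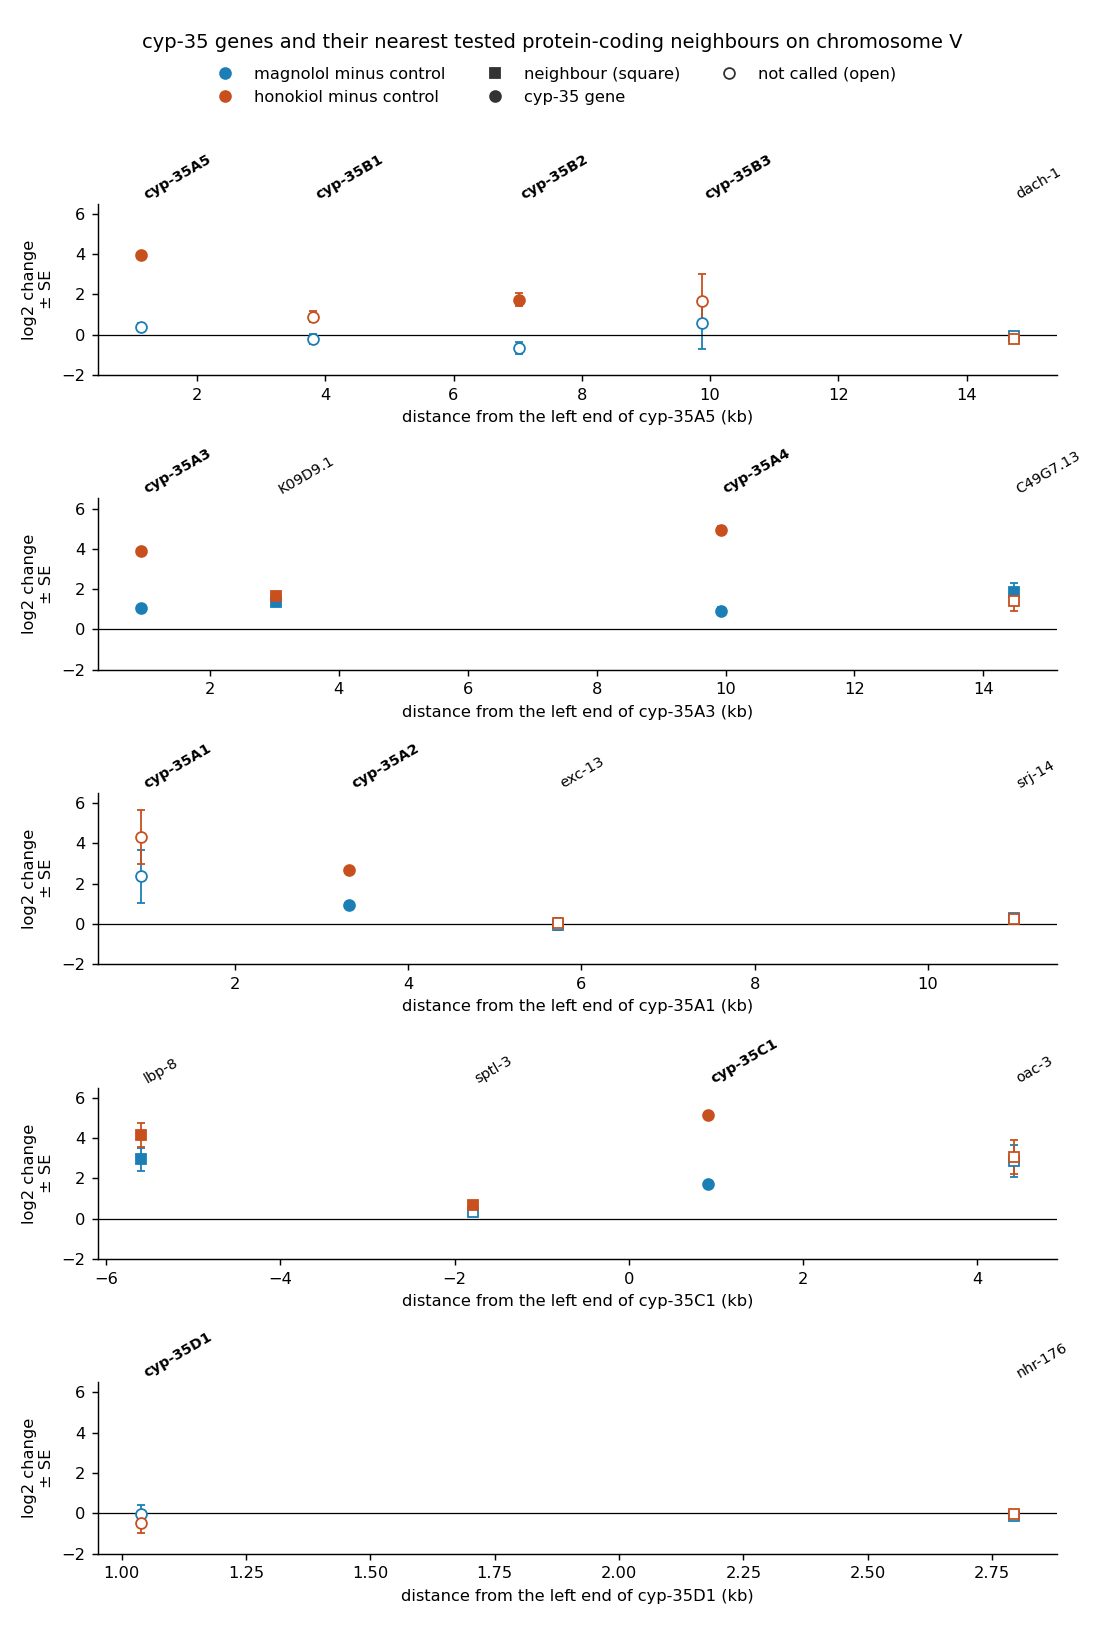
Log2 fold change against control of the cyp-35 genes and of their nearest tested neighbours, for honokiol and for magnolol, against the distance along chromosome V of the middle of each gene from the left end of the first member of its group, in kilobases, with bars of 1 SE. The cyp-35A5 gene stands at 3.95 with honokiol while the adjoining cyp-35B1 stands at 0.90, and at the cyp-35C1 locus cyp-35C1 (5.13) and lbp-8 (4.15) stand above sptl-3 (0.67), which lies between them. On the other side of cyp-35C1, oac-3 stands at 3.08 with honokiol and was not called.

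The electron donors of P450 enzymes were also measured. The gene for NADPH-cytochrome P450 reductase, emb-8, went from 206 ± 13.9 CPM in control to 450 ± 52.6 with magnolol and 502 ± 9.85 with honokiol (log2 1.12 ± 0.11 and 1.28 ± 0.11, both called). The isomers were not shown to differ in emb-8 (log2 -0.16 ± 0.12, adjusted p = 0.562). The cytochrome b5 gene cytb-5.1 was at 45.2 ± 2.35 CPM in control, 57.1 ± 0.936 with magnolol and 92.1 ± 5.46 with honokiol. It was called with honokiol (log2 1.03 ± 0.09) and between the isomers (log2 -0.69 ± 0.09), and not with magnolol (log2 0.34 ± 0.09, adjusted p = 0.0535). These are the 2 genes with a row of the 3 in that list.

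Of 13 genes known as regulators of P450 genes or of intestinal and stress transcription, 11 had a row and all 11 were tested; the others, mdt-15 and nhr-48, were not analysed here. The single gene called was pqm-1, a zinc-finger transcription factor of stress responses, at 36.6 ± 3.29 CPM in control, 54.8 ± 1.92 with magnolol and 79.5 ± 7.95 with honokiol. Its log2 fold changes were 0.58 ± 0.10 and 1.12 ± 0.11. Its difference between the isomers (log2 -0.54 ± 0.11, adjusted p = 0.0161) was lost without magnolol 2 (adjusted p = 0.0503), magnolol 3 (0.0979) or honokiol 1 (0.0812), and with the replicate number as a block (0.0771). The nuclear receptor nhr-8, known for resistance to foreign compounds, gave log2 0.22 ± 0.09 with magnolol and 0.14 ± 0.10 with honokiol, and was not called. The aryl hydrocarbon receptor ortholog ahr-1 (0.37 ± 0.41 and 0.10 ± 0.46) and daf-16, the FOXO factor of insulin signalling (0.26 ± 0.11 and -0.17 ± 0.12), were not called either. The median of the 11 was 0.22 with magnolol and 0.09 with honokiol, beside 0.003 and -0.012 over all rows tested. Each compound gave 1 call higher among the 11, beside 2.16% and 3.04% of all tested rows. Transcript levels do not report the activity of such proteins.

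The other cytochrome P450 genes, taken as all other symbols that start with cyp-, give the setting. Of their 66 tested rows, 26 were called higher and 2 lower with magnolol, and 32 higher and 1 lower with honokiol. Over all tested rows 2.16% were called higher and 0.702% lower with magnolol, and 3.04% and 0.393% with honokiol. Between the isomers, magnolol was higher for 3 and honokiol for 16, beside 0.285% and 1.24% of all tested rows. Their median log2 fold change was 0.36 with magnolol and 0.81 with honokiol, beside 0.74 and 3.27 for the cyp-35 genes. The cyp-35 genes were picked on results of these libraries, and their medians include cyp-35A1, which was tested through treated groups. Nothing is therefore read from that difference. The 1380 rows with exon lengths in the range of the members, 1500 to 1727 bases, had medians of 0.02 and 0.01.

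Genes with a pattern like that of the most abundant members were found by the root mean square difference, over the 8 libraries, of log2(CPM + 1) set to 0 at the mean of the controls. Closest to cyp-35A2 were cest-33, a carboxylesterase gene (0.196), F25D1.5 (0.219) and C40H1.8 (0.221). The level of cest-33 was 48.05 CPM in control, 80.4 with magnolol and 274 with honokiol. Within the subfamily the nearest to cyp-35A2 was cyp-35A3, at 0.504. Closest to cyp-35C1 were E02C12.10 (0.372), the short-chain dehydrogenase gene dhs-23 (0.454) and the UDP-glucuronosyltransferase gene ugt-9 (0.556). The transcript of dhs-23 went from 2.98 CPM in control to 9.99 with magnolol and 78.6 with honokiol. Within the subfamily the nearest to cyp-35C1 was cyp-35A4, at 0.841. The 1 added to each CPM shrinks the changes of genes that are low in control, so these orders depend on it. E02C12.10, at 1.13 CPM in control, had fitted log2 fold changes of 3.0 with magnolol and 5.8 with honokiol. Those of cyp-35C1 were 1.74 and 5.13, of dhs-23 1.75 and 4.72, and of cyp-35A4 0.91 and 4.94. All these likenesses are descriptions over the same 8 libraries that chose the subfamily.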

How the data were processed

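The authors deposited 1 table of read counts per gene, whole numbers without normalization, with 8 library columns named by library code. Per the submitters' processing notes the genome build was WBcel235 and DESeq2 was used; the aligner, the counter, the strand setting and the treatment of multiply matching reads were not given. Columns were tied to samples by the library names in the descriptions, and groups follow the sample titles. The members and the gene lists were chosen with earlier results of these data known. Members were matched by symbol. Positions, exons and coding lengths came from the WBcel235 annotation of Ensembl release 115.

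The deposited counts were tested in edgeR 4.0.16 (R 4.3.3). Rows passed filterByExpr by group with its defaults (16813 rows), libraries were scaled by TMM, and group means over all 8 libraries were fitted with glmQLFit. Each contrast was tested with glmQLFTest (two-sided), with p-values adjusted by Benjamini-Hochberg over all tested rows and a threshold of 0.05. The biological coefficient of variation was 14.1%, and 95% intervals used 5 residual and 9.35 prior degrees of freedom. The steps were first tested on simulated counts. The 16 alternatives were scaling by DESeq2 size factors or by the upper quartile, omission of the low-count filter, DESeq2 1.42.0, limma-voom (limma 3.58.1), separate fits for each pair of groups, a block for the replicate number, rows of a symbol summed, and each of the 8 libraries left out. Applying these also to neighbours, partners and regulators was chosen after seeing the data. All members are named, of the partner, regulator and neighbour lists those called in any comparison and a fixed few, and 3 genes per likeness search. The neighbours exc-13 and oac-3 were named in addition, after their values had been seen. Without 1 honokiol library the remaining library takes its spread from the other groups, which is an assumption. Plots used Python 3.11.15 and matplotlib 3.10.9.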

Additional observations from a re-analysis of the deposited data

How the results depend on the processing

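Over the 16 alternatives, members called higher numbered 3 to 4 with magnolol and 5 to 8 with honokiol, 6 to 7 were higher with honokiol than with magnolol, and none was called in the opposite direction of any of these comparisons. Leaving out single libraries gave 3 to 4, 5 to 7 and 6 to 7. With the replicate number as a block, which only shares a label between groups (control and magnolol libraries of the same number correlated at -0.088, 0.002 and -0.047 in their deviations), 3, 6 and 6 members were called. Of the members' single values, 443 kept their direction and their side of the threshold, 11 crossed to a call, 9 lost one and 5, none of them called, changed sign; the causes were not tested. These 5 arose from leaving out single libraries: cyp-35D1 with magnolol against control ran from -0.26 to 0.22, cyp-35B3 in that comparison from -0.01 to 0.98, and cyp-35B3 between the isomers from -1.78 to 0.02. DESeq2 gave no adjusted p for cyp-35A1 and cyp-35B3 with magnolol against control, nor for cyp-35A1, cyp-35B2, cyp-35B3 and cyp-35D1 between the isomers. Over all rows, counts moved more: 336 rows were higher with magnolol than with honokiol in DESeq2, 261 without the low-count filter and 16 with the block, against 48, and single libraries left out gave 15 (without honokiol 2) to 321 (without honokiol 1). Rows higher with honokiol than with magnolol numbered 209, with 315 without the filter and 112 to 253 with single libraries left out (lowest without honokiol 2). For rows lower with magnolol than in control the count was 118, with 280 in DESeq2, 183 without the filter, 60 with the block and 36 to 135 with single libraries left out (lowest without magnolol 3); lower with honokiol it was 66, with 141 in DESeq2, 33 with the block and 35 to 74 with single libraries left out (lowest without honokiol 2). Counts of rows higher than in control moved less in proportion. With magnolol they numbered 364, with 481 in DESeq2 and 258 without magnolol 3. With honokiol they numbered 511, with 587 in DESeq2 and 420 with the block. No alternative moved the median of all rows by more than 0.1. Precision is limited by the 2 honokiol libraries and by the counts of cyp-35A1, cyp-35B3 and cyp-35D1.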
